A study of Rattus norvegicus with 12 samples.

Results

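The 10 genes described here encode the transcriptional regulators of mitochondrial biogenesis and fatty acid oxidation: the coactivators PGC-1α and PGC-1β (Ppargc1a, Ppargc1b), the fatty acid-activated receptors Ppara and Ppard with their partner Rxra, the orphan receptors Esrra, Esrrb and Esrrg, and the nuclear and mitochondrial factors Nrf1 and Tfam. They were chosen by name, as the genes whose symbol in the deposited tables is one of these, which takes 10 of the 18469 genes measured. The RNA came from NRVMs, ventricular myocytes of neonatal Sprague-Dawley rats, transfected with a control siRNA (siNeg) or with 1 siRNA against Slc25a26, the carrier that brings S-adenosylmethionine into mitochondria. Phenylephrine (PE), an α1-adrenergic agonist, was given from 12 h after transfection and for 36 h. The siNeg libraries are from control siRNA without PE, siNeg.PE from control siRNA with PE, siSlc25a26 from the targeting siRNA without PE, and siSlc25a26.PE carries the label of the targeting siRNA with PE. Each group holds 3 independent biological replicates, all in DMEM with insulin, transferrin and selenium. Levels across libraries are given in CPM (counts scaled to library size) and levels of different genes in FPKM.

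PGC-1 coactivators do not bind DNA themselves and act through nuclear receptors and NRF1. ERR receptors bind genes of the tricarboxylic acid cycle and respiratory chain, PPAR receptors bind genes of fatty acid oxidation as dimers with RXR, and NRF1 acts on nuclear genes of respiration. TFAM packages mitochondrial DNA and starts its transcription.

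Promoter letters of NRF1, ERR and PPAR sites, and of sites bound by CREB and by ETS factors, were searched on both strands. The search covered the 250 bases before each transcription start of the RefSeq annotation (build GRCr8). Of the 10 genes, 9 had an entry and Ppard had none. Stretches of 4 genes are shown, 5′ to 3′ on the strand of the gene, because they hold a match, with the matched letters in capitals. In Ppargc1a (chr14:63634058-63634307, + strand, upstream of the gene) the capitals mark TGACGTCA, the cAMP response element bound by CREB, 181 to 174 bases before the start; 1.59% of all 33469 promoters hold it.
Ppargc1a: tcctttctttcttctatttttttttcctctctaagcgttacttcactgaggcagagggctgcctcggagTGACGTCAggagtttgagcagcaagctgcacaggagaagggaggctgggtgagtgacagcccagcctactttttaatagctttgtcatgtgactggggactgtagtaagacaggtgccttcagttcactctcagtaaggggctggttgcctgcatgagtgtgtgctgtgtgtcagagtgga
In Esrra (chr1:213543388-213543445, − strand, upstream) they mark GCATGCGC, a core of the NRF1 site, 115 to 108 bases before the start, and this core is held by 2.20% of promoters.
Esrra: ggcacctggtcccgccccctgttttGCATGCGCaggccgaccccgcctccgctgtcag
In Ppara (chr7:118712482-118712541, + strand, upstream) the same core is read on both strands in overlapping matches, 100 to 93 and 98 to 91 bases before the start.
Ppara: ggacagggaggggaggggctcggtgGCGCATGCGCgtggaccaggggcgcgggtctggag
In Tfam (chr20:17355292-17355349, + strand, upstream) the capitals mark CCGGAAGT, an ETS site of the kind bound by GABPA, 56 to 49 bases before the start, held by 3.10% of promoters.
Tfam: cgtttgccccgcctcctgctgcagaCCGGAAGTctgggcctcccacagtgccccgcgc
The ERR letters TCAAGGTCA (0.388% of promoters) and AGGTCA repeated after 1 base, the PPAR-type repeat (0.0508%), matched in 0 of the 12 entries of these genes. A match describes letters and not binding.

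The label of the treatment and of the siRNA were first read from the RNA. Nppa, Nppb and Acta1, the fetal genes that PE induces in these cells, rose with PE in siNeg by 4.63, 5.37 and 3.18 on the log2 scale (adjusted p = 2.22e-06, 2.05e-05 and 5.13e-05). In siSlc25a26 they rose with PE by 4.51, 5.32 and 5.15 (adjusted p = 1.99e-07, 6.50e-08 and 5.41e-07). Without PE, Nppa and Nppb were higher in siSlc25a26 than in siNeg by 1.14 and 1.97 (adjusted p = 5.62e-04 and 8.73e-05). Acta1 was at −0.52 there (95% CI −1.02 to −0.03, adjusted p = 0.0802) and passed without siNeg replicate 3 (0.0223) or siSlc25a26 replicate 1 (0.0143, range 0.0143 to 0.198). Its value ran from −0.79 to −0.31 with 1 library left out, and it passed with the replicate block too (adjusted p = 0.0124). Under PE all 3 were higher in siSlc25a26.PE than in siNeg.PE, by 1.02, 1.91 and 1.44 (adjusted p = 2.59e-04, 4.93e-04 and 0.00120). Slc25a26 stood at 33.2, 31.6 and 29.3 CPM in siNeg and at 15.8, 14.9 and 14.7 CPM in siSlc25a26, so every siSlc25a26 library was lower (log2 change −1.08, adjusted p = 1.08e-05). With PE it stood at 113, 106 and 86.2 CPM in siNeg.PE and at 102, 106 and 98.8 CPM in siSlc25a26.PE. These overlap (log2 change −0.01, 95% CI −0.24 to 0.22, adjusted p = 0.969), so the targeted gene was not lower under that label, and differences between siSlc25a26.PE and siNeg.PE are those of libraries with these labels and cannot be read as effects of reduced Slc25a26. The same limit holds for PE in siSlc25a26 and for the interaction test, which use the siSlc25a26.PE libraries too; there the siRNA is a label, and Slc25a26 rose with PE by 2.77 log2 units in siSlc25a26 (adjusted p = 1.49e-08) and by 1.69 in siNeg (1.79e-05). An interferon response list of 25 genes, with Irf7 the most abundant over the 12 libraries together, summed to a mean of 547 CPM in siNeg, 414 in siNeg.PE, 12647 in siSlc25a26 and 7893 in siSlc25a26.PE, so both siSlc25a26 groups were separated from both siNeg groups. Without PE 24 of 24 tested genes of this list were higher in siSlc25a26. Lower Slc25a26 and higher interferon genes came there with the same 1 siRNA. Their parts in the differences between siSlc25a26 and siNeg cannot be told apart.

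Per length, Esrra had the highest FPKM of the 10 regulators in each of the 4 groups (means of 58.9, 49.0, 53.4 and 44.6 FPKM in siNeg, siNeg.PE, siSlc25a26 and siSlc25a26.PE) and Esrrb the lowest (1.37, 1.39, 1.66 and 1.37 FPKM). In siNeg the order below Esrra was Rxra (45.2 FPKM), Tfam (28.9), Ppard (25.9), Nrf1 (11.3), Ppara (8.04), Ppargc1a (7.71), Esrrg (7.04) and Ppargc1b (6.40), with overlap of libraries between Tfam and Ppard and between neighbours from Ppara to Ppargc1b. With PE, Rxra stood at 23.8 FPKM in siNeg.PE and 18.2 FPKM in siSlc25a26.PE, below the group mean of Tfam (31.8 and 31.0 FPKM). All 10 genes were above the floor of 3 counts in all 12 libraries; the lowest count was 155, for Esrrb.

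**Figure D1:**
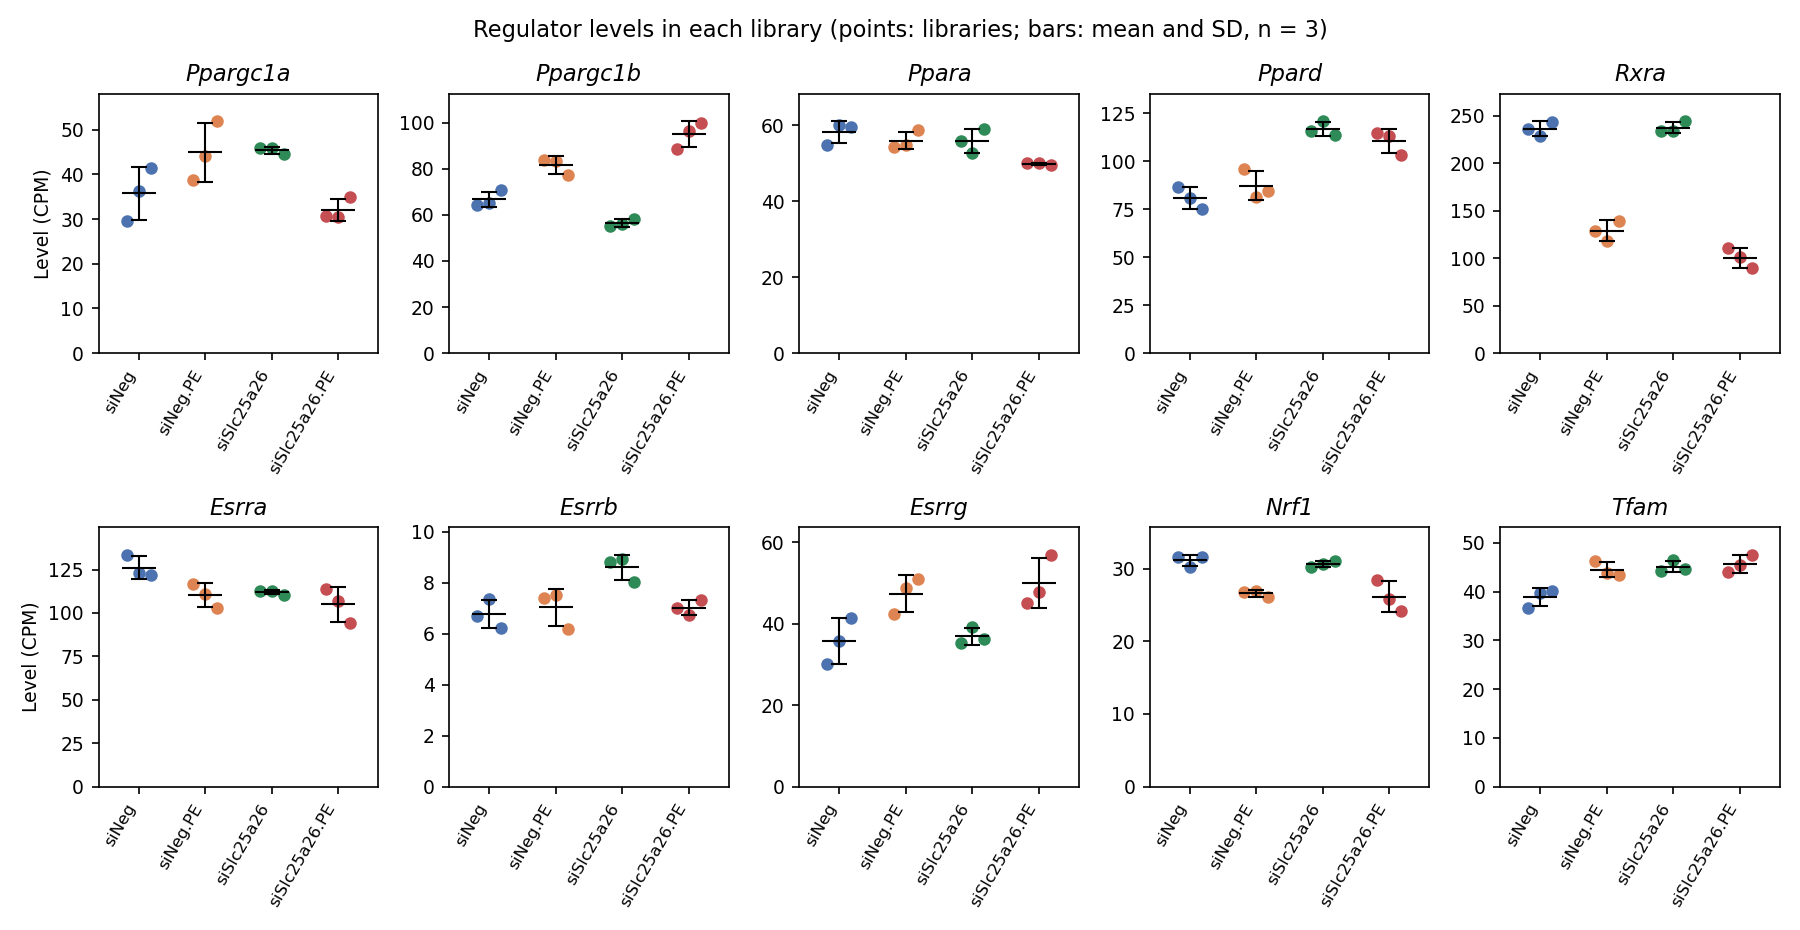
Level of each regulator in every library, in CPM on the vertical axis, by group on the horizontal axis; points are libraries and bars the group mean and SD (n = 3). Rxra is low in both PE groups, Ppargc1b is high in siSlc25a26.PE, and Ppargc1a is below siNeg.PE there but overlaps siNeg.

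Ppargc1a (gene 83516), whose product PGC-1α coactivates the receptors named above, was read at 29.5, 36.4 and 41.4 CPM in siNeg (35.8 ± 5.97, mean ± SD, n = 3) and at 38.7, 44.1 and 51.9 CPM in siNeg.PE (44.9 ± 6.62). It was at 46.0, 45.8 and 44.5 CPM in siSlc25a26 (45.4 ± 0.824) and at 30.7, 30.5 and 34.9 CPM in siSlc25a26.PE (32.0 ± 2.46). The siSlc25a26 libraries were all higher than those of siNeg and of siSlc25a26.PE, and the siSlc25a26.PE libraries were all lower than those of siNeg.PE. Both siNeg and siSlc25a26 overlapped siNeg.PE, and siNeg overlapped siSlc25a26.PE. The PE change of Ppargc1a in siNeg was 0.32 log2 units (95% CI −0.01 to 0.65; adjusted p = 0.0971), and it passed without siNeg replicate 3 (adjusted p = 0.0348) or siNeg.PE replicate 1 (0.0332), within a range of 0.0332 to 0.285 over the libraries left out. The value was 0.21 without siNeg replicate 1 and 0.19 without siNeg.PE replicate 3 (range 0.19 to 0.43). It fell with PE in siSlc25a26 by 0.49 on the log2 scale (SE 0.071, n = 3 against 3; adjusted p = 4.40e-04). Without PE, Ppargc1a was higher in siSlc25a26 than in siNeg by 0.32 log2 units (95% CI 0.08 to 0.56; adjusted p = 0.0349), a pass that was lost without siNeg replicate 2 or siSlc25a26 replicate 1, 2 or 3 (range of adjusted p 0.00299 to 0.0937). The value was 0.20 without siNeg replicate 1 (range 0.20 to 0.41). Under PE it was lower in the libraries labelled siSlc25a26.PE than in siNeg.PE (log2 change −0.50, SE 0.11; adjusted p = 0.00625). In FPKM the difference without PE did not pass (adjusted p 0.0123 to 0.0639 over the alternatives), and with all 12 libraries in 1 fit the PE change in siNeg did (0.0356). That change also passed with the replicate block (adjusted p = 4.34e-04), though replicate numbers are not known to pair.

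The PE effect on Ppargc1a differed between the siRNA labels. The difference of the log2 changes was −0.83 (95% CI −1.20 to −0.46; adjusted p = 0.00805, edgeR interaction test over 12 libraries), it was called, and it ranged from −0.95 to −0.70 with each library left out in turn (adjusted p 0.00365 to 0.0281).

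Ppargc1b (gene 291567) encodes PGC-1β, the close relative that coactivates ERR and NRF1. Its levels were 64.4, 65.1 and 70.6 CPM in siNeg (66.7 ± 3.40), 84.0, 83.6 and 77.3 CPM in siNeg.PE (81.6 ± 3.79), 55.0, 56.1 and 58.4 CPM in siSlc25a26 (56.5 ± 1.74) and 88.8, 96.5 and 99.7 CPM in siSlc25a26.PE (95.0 ± 5.61). The 4 groups did not overlap in any of the 6 pairs, with siSlc25a26 lowest, then siNeg, siNeg.PE and siSlc25a26.PE. Ppargc1b rose with PE in siNeg by 0.28 log2 units (SE 0.059; adjusted p = 0.00576) and kept its pass without each library, though not in FPKM, where the change was 0.13 and 0.14 (adjusted p = 0.218 and 0.205; ranges over the alternatives 0.13 to 0.29 and 0.00102 to 0.218). In siSlc25a26 it rose with PE by 0.76 log2 units, 1.69-fold (SE 0.062; adjusted p = 1.36e-05), and was called; in FPKM with a pseudocount of 1 the rise was 0.50 (0.50 to 0.77 over the alternatives) and not called. Without PE it was lower in siSlc25a26 than in siNeg by a log2 change of −0.27 (95% CI −0.39 to −0.14; adjusted p = 0.00448). Under PE it was higher in siSlc25a26.PE than in siNeg.PE by 0.21 (95% CI 0.04 to 0.38; adjusted p = 0.0467), which was lost without siNeg.PE replicate 2 or 3 or siSlc25a26.PE replicate 2 or 3 (range 0.0204 to 0.159). The PE effects on Ppargc1b differed by 0.46 log2 units (95% CI 0.27 to 0.65; adjusted p = 0.00518), from 0.42 to 0.50 with each of the 12 libraries left out. The difference under PE was also lost with no filter, the stricter filter and in FPKM (0.0103 to 0.187 over the alternatives), and it was 0.14 in FPKM with a pseudocount of 1 (0.14 to 0.22).

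The ratio of Ppargc1a to Ppargc1b within a library, which no scaling between libraries can move, was 1.06, 1.28 and 1.26 in siNeg and 1.15, 1.31 and 1.62 in siNeg.PE in FPKM. It was 1.75, 1.79 and 1.88 in siSlc25a26 and 0.801, 0.757 and 0.827 in siSlc25a26.PE. Ppargc1a therefore had more FPKM than Ppargc1b in 9 of the 12 libraries and less in the 3 of siSlc25a26.PE, and the siSlc25a26 and siSlc25a26.PE ratios lay apart from those of the other groups on opposite sides.

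**Figure D2:**
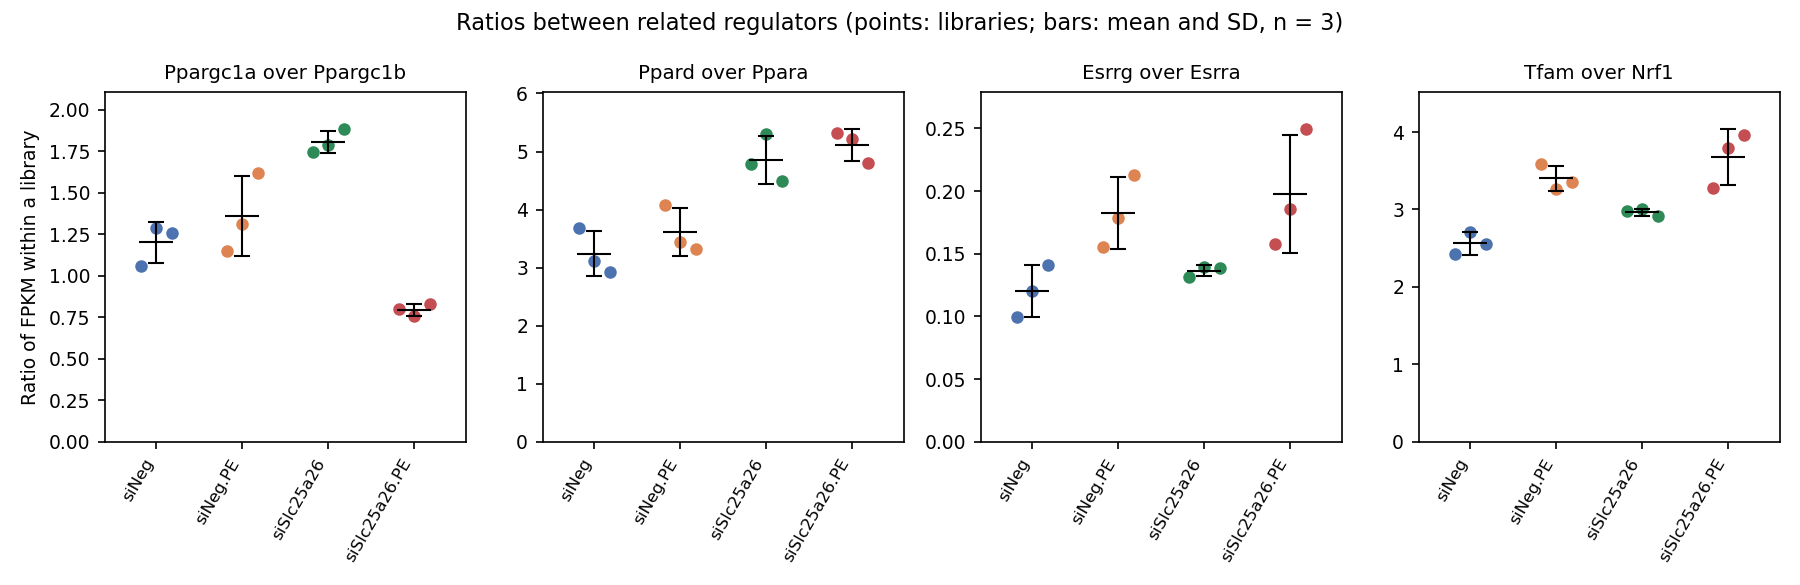
Ratio of the FPKM of related regulators within each library on the vertical axis, by group on the horizontal axis; points are libraries and bars the mean and SD (n = 3). Ppargc1a over Ppargc1b is highest in siSlc25a26 and lowest in siSlc25a26.PE.

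Ppara (gene 25747), the receptor that drives fatty acid oxidation genes in heart, was at 54.9, 60.2 and 59.6 CPM in siNeg (58.2 ± 2.90) and 54.5, 54.9 and 58.7 CPM in siNeg.PE (56.0 ± 2.33). It was at 55.9, 52.7 and 59.0 CPM in siSlc25a26 (55.9 ± 3.19) and 50.0, 50.2 and 49.6 CPM in siSlc25a26.PE (49.9 ± 0.326). The siSlc25a26.PE libraries were below every other library, and the other 3 groups overlapped. The PE change of Ppara was −0.07 log2 units in siNeg (95% CI −0.22 to 0.08; adjusted p = 0.425). In siSlc25a26 it was −0.15 (95% CI −0.29 to −0.02; adjusted p = 0.0601) and passed without siSlc25a26 replicate 2 (0.0448; range 0.0448 to 0.197). Without PE the siRNA difference was −0.08 (95% CI −0.23 to 0.06; adjusted p = 0.317). Under PE Ppara was lower in siSlc25a26.PE than in siNeg.PE (log2 change −0.18, 95% CI −0.31 to −0.04; adjusted p = 0.0479), and this pass was lost without siNeg.PE replicate 1, 2 or 3 and without siSlc25a26.PE replicate 1, 2 or 3 (0.0792 to 0.159). Under PE it was also lost with DESeq2, DESeq2 size factors, no filter and FPKM with a pseudocount of 1 (0.0245 to 0.0915 over the alternatives), while the fall in siSlc25a26 passed with the stricter filter, with all 12 libraries in 1 fit and in FPKM (0.00540 to 0.110), where it was −0.28 and −0.32 (−0.32 to −0.15). For PE in siSlc25a26 in FPKM, all genes had a median of −0.13 and −0.17.

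Ppard (gene 25682), the related receptor with wider tissue expression, was at 86.7, 80.8 and 75.1 CPM in siNeg (80.9 ± 5.80) and 95.8, 81.4 and 84.3 CPM in siNeg.PE (87.2 ± 7.64). Both siSlc25a26 groups were higher, at 116, 121 and 114 CPM without PE (117 ± 3.63) and 115, 113 and 103 CPM in siSlc25a26.PE (110 ± 6.35). All 6 libraries with the targeting siRNA label exceeded all 6 siNeg libraries, while the PE groups overlapped their controls. Without PE, Ppard was higher in siSlc25a26 by 0.50 log2 units, 1.42-fold (SE 0.062; adjusted p = 2.69e-04). Under PE it was higher in siSlc25a26.PE by 0.33 (95% CI 0.14 to 0.51; adjusted p = 0.0117), a pass lost without siNeg.PE replicate 2 (0.0578; range 0.00463 to 0.0578). The PE change was 0.10 in siNeg (95% CI −0.09 to 0.28, adjusted p = 0.351), from 0.0313 to 0.16 with 1 library left out. Over the alternatives it ran from 0.0507 to 0.11 in siNeg. In siSlc25a26 the PE change was −0.07 (95% CI −0.20 to 0.05, adjusted p = 0.310), from −0.10 to −0.03 with 1 library left out. The FPKM ratio of Ppard to Ppara had means of 3.24 in siNeg, 3.62 in siNeg.PE, 4.86 in siSlc25a26 and 5.11 in siSlc25a26.PE. In FPKM the PE change in siSlc25a26 passed as a fall, at −0.24 and −0.25 (−0.25 to −0.07 and adjusted p 0.00562 to 0.437 over the alternatives). The median of all genes in that FPKM comparison was itself at −0.13 and −0.17.

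Rxra (gene 25271), the dimer partner of PPAR receptors, had the largest PE change of the 10 genes under both siRNAs. It was at 237, 229 and 244 CPM in siNeg (236 ± 7.78) and 129, 118 and 140 CPM in siNeg.PE (129 ± 11.0). In siSlc25a26 it was at 234, 234 and 244 CPM (238 ± 5.85), and in siSlc25a26.PE at 110, 101 and 89.6 CPM (100 ± 10.5). The 6 PE libraries were all far below the 6 libraries without PE, and siSlc25a26.PE was also below siNeg.PE, whereas siNeg and siSlc25a26 overlapped. Rxra fell with PE in siNeg by 0.89 on the log2 scale (SE 0.073; adjusted p = 6.34e-05) and was called. It fell by 1.23 in siSlc25a26 (SE 0.072; adjusted p = 1.81e-06) and was called there as well. Without PE the siRNA difference was −0.02 (95% CI −0.12 to 0.09; adjusted p = 0.773). Under PE Rxra was lower in siSlc25a26.PE (log2 change −0.37, 95% CI −0.57 to −0.17; adjusted p = 0.00991).

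The PE effects on Rxra differed by −0.37 (95% CI −0.60 to −0.14; adjusted p = 0.0437). That pass held only without siNeg replicate 3, siNeg.PE replicate 2 or siSlc25a26.PE replicate 1, and was lost without each of the other 9 libraries: siNeg replicates 1 and 2, siNeg.PE replicates 1 and 3, siSlc25a26.PE replicates 2 and 3, and siSlc25a26 replicates 1, 2 and 3 (range of adjusted p 0.0156 to 0.116). It was lost with DESeq2 size factors too (0.0575; 0.0104 to 0.0575 over the alternatives). Of the relatives of Rxra, Rxrg fell with PE in siNeg by 1.35 on the log2 scale and in siSlc25a26 by 1.75 (adjusted p = 5.07e-05 and 1.14e-06). Rxrb fell by 0.57 and by 0.72 (adjusted p = 6.66e-04 and 1.04e-04). The interaction did not pass for Rxrg (−0.42, adjusted p = 0.0928) or Rxrb (−0.18, 0.347). For Rxrg it passed in FPKM (0.0361 and 0.0386) and without siNeg.PE replicate 2 (0.0497) or siSlc25a26.PE replicate 1 (0.0374).

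Esrra (gene 293701), the ERR most tied to PGC-1 coactivation, was at 133, 123 and 122 CPM in siNeg (126 ± 6.41) and 117, 111 and 103 CPM in siNeg.PE (110 ± 6.83). It was at 113, 113 and 110 CPM in siSlc25a26 (112 ± 1.36) and 114, 107 and 94.2 CPM in siSlc25a26.PE (105 ± 10.1). Each siNeg library was above each of the other 9, and the other groups overlapped. Esrra fell with PE in siNeg by 0.21 on the log2 scale (95% CI −0.35 to −0.06; adjusted p = 0.0251), which was lost without siNeg replicate 1 or 2 or siNeg.PE replicate 2 or 3 (range 0.0263 to 0.109). Its PE change in siSlc25a26 was −0.08 (95% CI −0.24 to 0.07, adjusted p = 0.321), from −0.14 to −0.02 with 1 library left out. Without PE it was lower in siSlc25a26 than in siNeg (log2 change −0.20, 95% CI −0.31 to −0.08; adjusted p = 0.0136). Under PE the difference was −0.08 (95% CI −0.27 to 0.11; adjusted p = 0.473). With all 12 libraries in 1 fit the difference without PE was lost (0.0643; 0.00710 to 0.0643 over the alternatives), and in FPKM the PE change in siSlc25a26 passed as a fall (0.0129 to 0.407), at −0.26 with both pseudocounts (−0.26 to −0.08). All genes together had a median of −0.13 and −0.17 in that FPKM comparison.

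Esrrb (gene 299210), the least expressed of the ERR genes here in FPKM, was at 6.71, 7.36 and 6.24 CPM in siNeg (6.77 ± 0.566) and 7.40, 7.51 and 6.19 CPM in siNeg.PE (7.03 ± 0.733). It was at 8.82, 8.93 and 8.03 CPM in siSlc25a26 (8.59 ± 0.494) and 7.02, 6.72 and 7.31 CPM in siSlc25a26.PE (7.01 ± 0.295). The siSlc25a26 libraries were above all 9 others, which overlapped. Without PE, Esrrb was higher in siSlc25a26 by 0.32 log2 units (95% CI 0.07 to 0.57; adjusted p = 0.0416), lost without siNeg replicate 1 or 3 or siSlc25a26 replicate 1, 2 or 3 (range 0.0491 to 0.126). It fell with PE in siSlc25a26 by 0.28 (95% CI −0.51 to −0.06; adjusted p = 0.0403), lost without siSlc25a26 replicate 1 or 2 or siSlc25a26.PE replicate 1 or 2 (range 0.0405 to 0.133). The PE change in siNeg was 0.04 (95% CI −0.24 to 0.32; adjusted p = 0.792). Under PE the siRNA difference was −0.01 (95% CI −0.29 to 0.26; adjusted p = 0.942). Both passes were also lost with DESeq2, no filter and in FPKM (adjusted p up to 0.108 without PE and 0.115 for PE over the alternatives). In FPKM with a pseudocount of 1 they were 0.17 without PE (0.17 to 0.35) and −0.17 for PE (−0.29 to −0.17). The pass for PE was lost with the replicate block too (adjusted p = 0.0935).

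Esrrg (gene 360896), the ERR with a role in the switch to oxidative metabolism of the heart after birth, was at 30.2, 35.8 and 41.5 CPM in siNeg (35.8 ± 5.66) and 42.3, 48.8 and 51.0 CPM in siNeg.PE (47.4 ± 4.52). It was at 35.3, 39.2 and 36.1 CPM in siSlc25a26 (36.9 ± 2.02) and 45.2, 47.7 and 56.9 CPM in siSlc25a26.PE (50.0 ± 6.17). The 6 PE libraries were above the 6 libraries without PE, and the siRNAs overlapped at each condition. Esrrg rose with PE in siSlc25a26 by 0.45 log2 units (95% CI 0.24 to 0.66; adjusted p = 0.00359). It rose in siNeg by 0.39, 1.31-fold (95% CI 0.11 to 0.67; adjusted p = 0.0272), lost without siNeg replicate 1 or 2 or siNeg.PE replicate 2 or 3 (range 0.00706 to 0.0792). In FPKM the PE pass was lost under both siRNAs (adjusted p up to 0.0549 in siNeg and 0.0841 in siSlc25a26 over the alternatives), and in siSlc25a26 the change was 0.22 and 0.24 (0.22 to 0.45). The FPKM median of all genes was −0.13 and −0.17 for PE in siSlc25a26. The siRNA difference was 0.02 without PE (95% CI −0.22 to 0.25; adjusted p = 0.913). It was 0.07 under PE (95% CI −0.17 to 0.31; adjusted p = 0.631). The FPKM ratio of Esrrg to Esrra had means of 0.120 in siNeg, 0.182 in siNeg.PE, 0.137 in siSlc25a26 and 0.197 in siSlc25a26.PE.

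Nrf1 (gene 312195), which activates nuclear genes of the respiratory chain, was at 31.5, 30.3 and 31.6 CPM in siNeg (31.1 ± 0.748) and 26.8, 26.9 and 26.1 CPM in siNeg.PE (26.6 ± 0.440). It was at 30.3, 30.6 and 31.0 CPM in siSlc25a26 (30.6 ± 0.375) and 28.4, 25.9 and 24.2 CPM in siSlc25a26.PE (26.1 ± 2.12). All 6 PE libraries were below all 6 without PE, with overlap of the siRNAs at each condition. Nrf1 fell with PE in siNeg by 0.24 on the log2 scale (95% CI −0.38 to −0.10; adjusted p = 0.0118). It fell in siSlc25a26 by 0.22 (95% CI −0.38 to −0.06; adjusted p = 0.0288), lost without siSlc25a26.PE replicate 2 or 3 or siSlc25a26 replicate 1, 2 or 3 (range 0.00772 to 0.101). In FPKM this change was −0.41 and −0.45 (−0.45 to −0.21 over the alternatives), where the median of all genes was −0.13 and −0.17. The siRNA difference was −0.05 without PE (95% CI −0.18 to 0.08; adjusted p = 0.523). Under PE it was −0.03 (95% CI −0.21 to 0.14, adjusted p = 0.757), and over the alternatives it ran from −0.15 to −0.02.

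Tfam (gene 83474), which binds mitochondrial DNA, was at 36.7, 39.7 and 40.0 CPM in siNeg (38.8 ± 1.85) and 46.2, 43.8 and 43.4 CPM in siNeg.PE (44.5 ± 1.53). It was at 44.3, 46.4 and 44.7 CPM in siSlc25a26 (45.1 ± 1.15) and 44.0, 45.5 and 47.5 CPM in siSlc25a26.PE (45.7 ± 1.79). The siNeg libraries were the 3 lowest of the 12, and the other groups overlapped. Tfam rose with PE in siNeg by 0.18 log2 units (95% CI 0.04 to 0.33; adjusted p = 0.0377), a pass lost without siNeg replicate 1, 2 or 3 and without siNeg.PE replicate 1, 2 or 3 (0.0503 to 0.102). Without PE it was higher in siSlc25a26 by 0.19 (95% CI 0.06 to 0.32; adjusted p = 0.0259), lost without siNeg replicate 1 or 2 or siSlc25a26 replicate 1, 2 or 3 (range 0.0308 to 0.103). The PE change in siSlc25a26 was 0.03 (95% CI −0.11 to 0.16; adjusted p = 0.711), and in FPKM it passed as a fall, at −0.14 and −0.15 with the 2 pseudocounts (adjusted p = 0.0482 and 0.0488; 0.0482 to 0.819 over the alternatives). These FPKM values stand beside a median of all genes of −0.13 and −0.17 in the same comparison. Under PE the siRNA difference was 0.03 (95% CI −0.13 to 0.19; adjusted p = 0.766). The FPKM ratio of Tfam to Nrf1 had means of 2.56 in siNeg, 3.40 in siNeg.PE, 2.97 in siSlc25a26 and 3.68 in siSlc25a26.PE. The rise with PE in siNeg was also lost with DESeq2, no filter and in FPKM (0.0118 to 0.0642 over the alternatives), and the difference without PE with DESeq2 (0.0559; 0.00646 to 0.0559).

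The interaction test did not pass for the other 7 regulators. Its values were −0.11 for Ppara (adjusted p = 0.448), −0.19 for Ppard (0.264), 0.10 for Esrra (0.554), −0.35 for Esrrb (0.160), 0.04 for Esrrg (0.916), −0.00 for Nrf1 (1.00) and −0.18 for Tfam (0.183), where FPKM alone gave a pass (0.0220 to 0.335 over the alternatives). Over the alternatives these values ran from −0.21 to −0.08 for Ppara, −0.30 to −0.16 for Ppard, 0.0023 to 0.13 for Esrra, −0.35 to −0.18 for Esrrb and −0.29 to −0.15 for Tfam, with the end furthest from the values above in FPKM. With a library left out they ran from −0.14 to −0.06 for Ppara, −0.24 to −0.12 for Ppard and 0.0360 to 0.17 for Esrra. The Nrf1 value ran from −0.18 to 0.0261 over the alternatives. In FPKM the median interaction of all genes was −0.11 and −0.14 with the 2 pseudocounts, against −0.05 in the main fit.

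**Figure D3:**
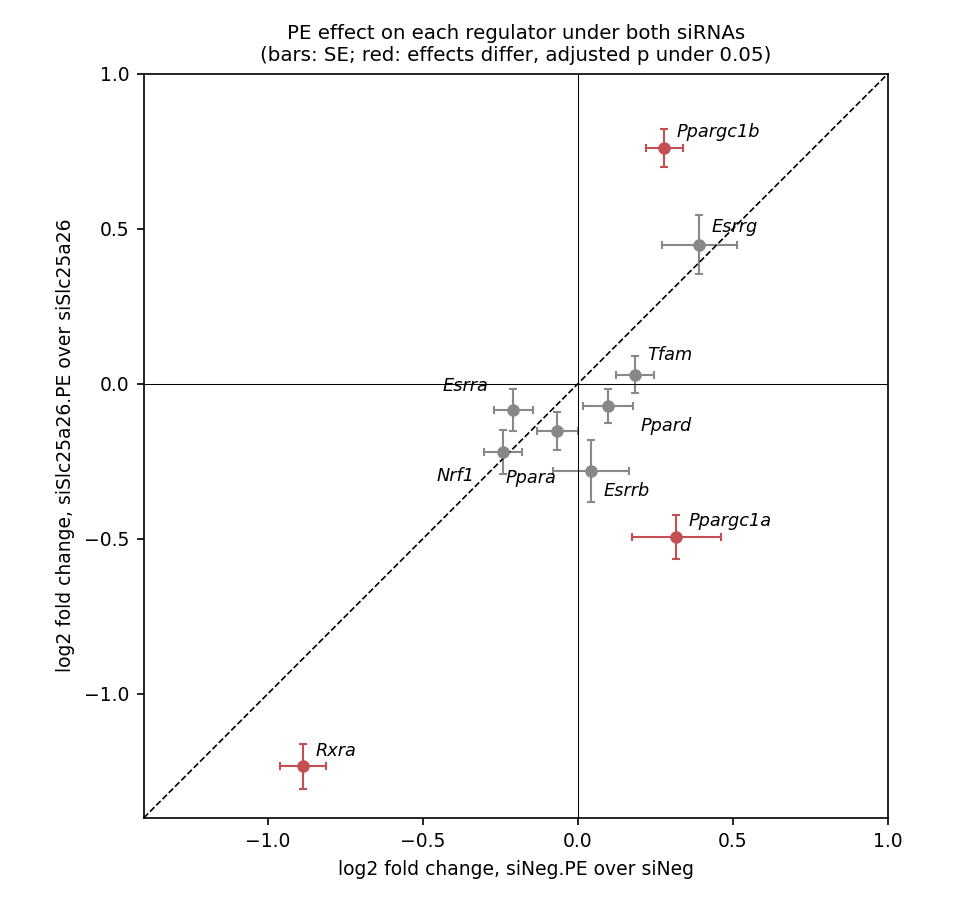
PE effect on each regulator as log2 fold change in siNeg (horizontal axis) and in siSlc25a26 (vertical axis); points are edgeR estimates, bars their SE, and the dashed line marks equal effects. Ppargc1a, Ppargc1b and Rxra, in red, differ between the siRNA labels with an adjusted p under 0.05.

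Counted together, with PE in siNeg 3 of the 10 regulators rose, Ppargc1b, Esrrg and Tfam (25.2% of the 13719 genes tested rose), and 3 fell, Esrra, Nrf1 and Rxra (24.3% of genes fell). Of these, Rxra was called, 1 of 10, where 20.7% of genes were called in either direction. The groups of 3 did not overlap for 6 of 10 regulators, against 58.6% of genes. The median log2 change of the 10 was 0.07, against 0.00 over all genes. The rise count was 0 in FPKM (0 to 4 over the alternatives), and 1 without siNeg replicate 1 or 2 or siNeg.PE replicate 2 or 3.

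With PE in siSlc25a26 2 of the 10 rose, Ppargc1b and Esrrg (26.4% of 13776 genes rose), and 4 fell, Ppargc1a, Esrrb, Nrf1 and Rxra (26.0% fell). Ppargc1b and Rxra were called, 2 of 10, against 20.5% of genes. Groups did not overlap for 7 of 10 regulators, against 61.0% of genes, and the median log2 change was −0.12 against −0.00 over all genes. The fall count was 2 without siSlc25a26.PE replicate 2 or siSlc25a26 replicate 1. In FPKM 1 regulator rose and 7 fell (1 to 2 and 2 to 7 over the alternatives), and 2 were called lower with a pseudocount of 0.1. In that last fit 824 of all 13776 genes were called higher and 2214 lower. The shares above are of the edgeR fit, and shares of all genes that rose or fell in FPKM were not counted. In FPKM the median of all genes moved to −0.13 and −0.17 in this comparison, and Ppargc1b was then not called.

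Without PE, 4 of the 10 regulators were higher in siSlc25a26 than in siNeg, Ppargc1a, Ppard, Esrrb and Tfam (23.3% of 13829 genes were higher), and 2 were lower, Ppargc1b and Esrra (21.7% lower). None passed 1.5-fold, so 0 of 10 were called by edgeR, DESeq2 or limma-voom, against 16.1% of genes by edgeR; 6 of 10 had an unadjusted p under 0.05. Groups did not overlap for 6 of 10, against 56.9% of genes, and the median log2 change was −0.00 against 0.01. The count of higher regulators was 2 without siNeg replicate 1 or 2 and 1 without siSlc25a26 replicate 1, 2 or 3. It was 2 with DESeq2 and in FPKM (2 to 4 over the alternatives), and 1 was lower with all 12 libraries in 1 fit (1 to 2).

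Under PE, 2 regulators were higher in siSlc25a26.PE than in siNeg.PE, Ppargc1b and Ppard (20.1% of 13671 genes were higher), and 3 were lower, Ppargc1a, Ppara and Rxra (20.1% lower). By edgeR, DESeq2 or limma-voom 0 of 10 were called, against 15.8% of genes by edgeR, and 5 of 10 had an unadjusted p under 0.05; without siNeg.PE replicate 1, and in FPKM with a pseudocount of 0.1, 1 was called. In that FPKM fit 881 of all 13671 genes were called higher and 1300 lower. Groups did not overlap for 5 of 10, against 52.0% of genes, and the median was −0.02 against −0.00. The count of higher regulators was 0 without siNeg.PE replicate 2 and 1 without siNeg.PE replicate 3 or siSlc25a26.PE replicate 2 or 3. It was 1 with no filter, the stricter filter and in FPKM (1 to 2 over the alternatives).

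In the interaction test the difference passed as positive for 1 of 10 regulators, Ppargc1b (5.48% of 14097 genes), and as negative for 2, Ppargc1a and Rxra (5.73%). Here and below, positive and negative interaction counts are of genes with an adjusted p under 0.05. Ppargc1a was called, 1 of 10, against 5.50% of genes. The median difference of the 10 was −0.14, against −0.05 over all genes. The negative count was 1 without each of the 9 libraries named with the Rxra interaction and with DESeq2 size factors (1 to 3 over the alternatives). The 4 simple comparisons share groups with each other, so their counts are not independent.

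**Figure D4:**
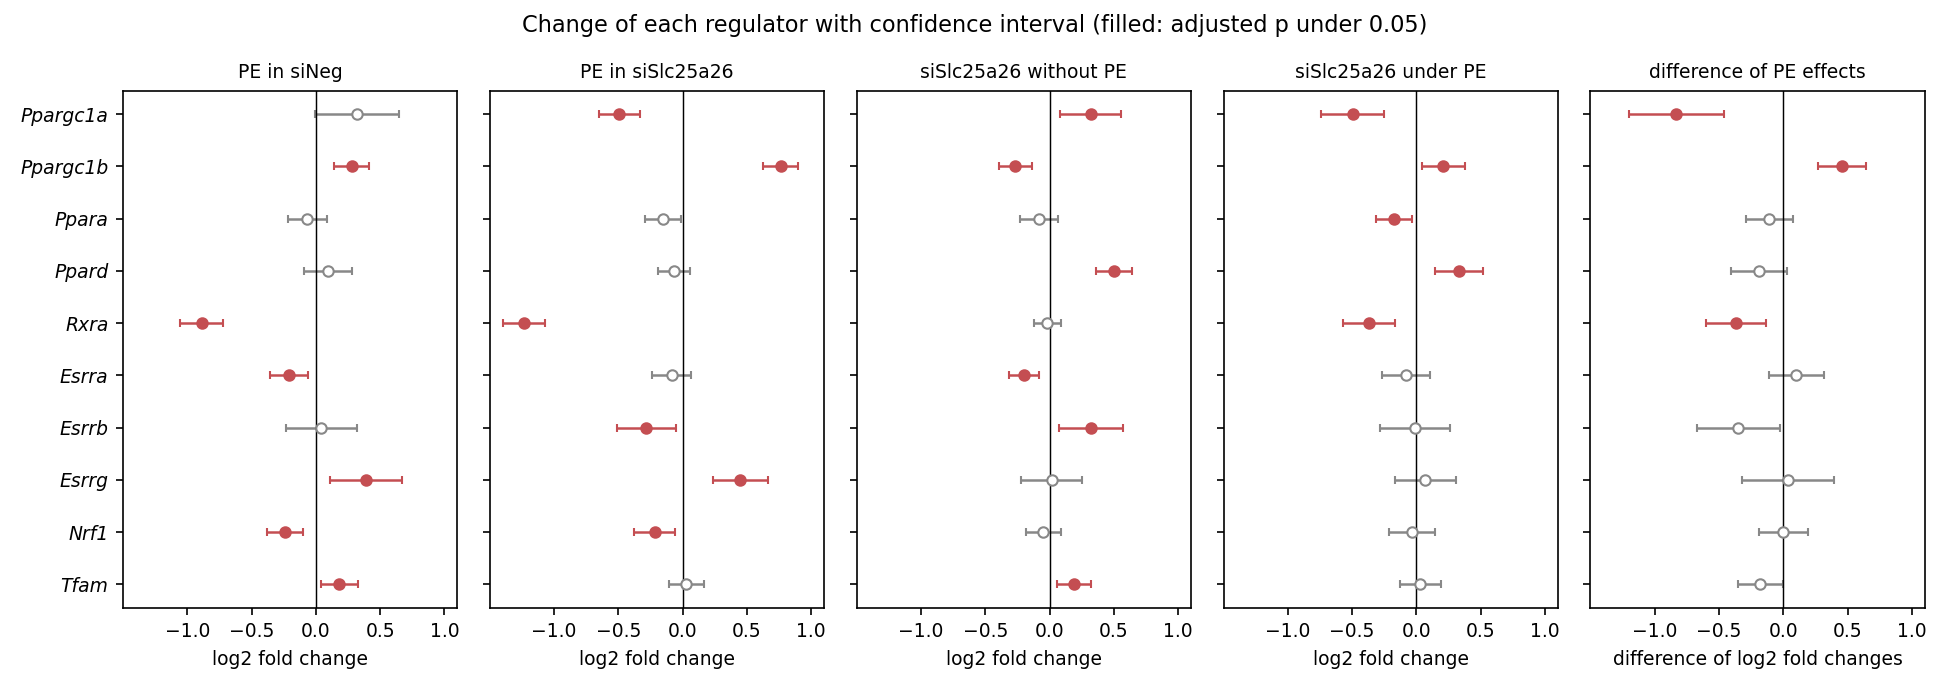
Log2 fold change of each regulator (vertical axis: genes) in the 4 simple comparisons and the difference of the PE effects, 1 panel each; points are edgeR estimates (filled where the adjusted p is under 0.05), bars the 95% CI. Rxra is furthest from 0 in both PE panels, while Ppargc1a and Ppargc1b change side between panels.

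The cell type markers measured beside these results moved as well. Cardiomyocyte markers (11 of 11 in the table, Myh7 the most abundant) summed to means of 35247 CPM in siNeg, 47595 in siNeg.PE, 34753 in siSlc25a26 and 53157 in siSlc25a26.PE, and fibroblast markers (10 of 10, Col1a1) to 26202, 13696, 15585 and 10872 CPM. Mural cell markers (6 of 6, Pdgfrb) summed to 898, 656, 793 and 905 CPM, endothelial markers (8 of 8, Tek) to 31.2, 27.7, 31.1 and 32.4 CPM, and macrophage and leukocyte markers (10 of 10, Cd68) to 31.0, 15.5, 17.5 and 15.0 CPM. Single markers, tested in the edgeR fits alone, did not all follow these sums. Of the 11 cardiomyocyte markers 6 rose and 1 fell with PE in siNeg, and 9 rose and 1 fell in siSlc25a26. Without PE 1 was higher in siSlc25a26, Myh7, and 5 were lower, with Myh6 at −0.66; under PE 2 were higher in siSlc25a26.PE and 3 lower. Of the 6 mural cell markers 1 rose and 3 fell with PE in siNeg, and 2 rose and 1 fell in siSlc25a26. Without PE 1 was higher in siSlc25a26 and 3 were lower. Under PE 2 were higher in siSlc25a26.PE, with Cspg4 at 1.08, and 2 were lower, Myh11 at −0.92 and Rgs5 at −0.66. Of the 10 fibroblast markers 2 rose and 6 fell with PE in siNeg, and 1 rose and 5 fell in siSlc25a26. Without PE 1 was higher in siSlc25a26 and 8 were lower, and under PE 1 was higher in siSlc25a26.PE, Tcf21 at 0.61, and 8 were lower. Of the 7 endothelial markers tested 1 rose, Tek, and 2 fell with PE in siNeg, with Kdr at −1.08; in siSlc25a26 1 rose, Tek by 0.72, and 1 fell, Kdr by 0.95. Without PE 0 of 7 were higher in siSlc25a26 and 1 lower, and under PE 1 of 6 was higher in siSlc25a26.PE and 0 lower. Of the macrophage and leukocyte markers 0 of 6 rose and 5 fell with PE in siNeg, and 0 of 6 rose and 1 fell in siSlc25a26. Without PE 0 of 6 were higher in siSlc25a26 and 4 lower, and under PE 0 of 5 passed either way. In the interaction test 2 of 11 cardiomyocyte, 3 of 10 fibroblast, 2 of 6 mural, 0 of 7 endothelial and 3 of 6 macrophage and leukocyte markers were positive. Of these lists, 1 cardiomyocyte marker was negative and 0 of the others. Of the interferon response list 0 of 25 were positive and 12 negative, where 5.48% and 5.73% of all genes were. Among the positive markers were Fn1 (0.77) and Cspg4. Cd163 and Cd3e were at 0 in 11 of 12 libraries and Emcn in 5 of 12. The shares of all genes that passed are those given with the regulators, and the part of these markers in the results on the regulators was not tested. In bulk samples, fewer cells of a type and less RNA per cell cannot be told apart.

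Across the 12 libraries (log CPM, Pearson r, a description over 4 groups that differ), Rxra ran opposite to Ppargc1b (r = −0.94) and with Nrf1 (0.93), and Esrrg ran opposite to Nrf1 (−0.88) and Esrra (−0.83). Of 12754 genes, the closest to Ppargc1a were Ghr (r = 0.964), Hdac9 (0.957) and Prxl2c (0.928), and to Ppargc1b Lrrc8c (0.988), Myom1 (0.984) and Itga6 (0.983). Those closest to Ppard were Mvp (0.977), Cfb (0.966) and Etv6 (0.957), and to Rxra Fam160a1 (0.999), Ptprs (0.995) and Btbd11 (0.994). For Nrf1 they were Lrrc45 (0.990), Tbc1d13 (0.987) and Sidt2 (0.982), and for Esrrg Dlg1 (0.986), Usp8 (0.976) and Pafah1b1 (0.975). For Ppara, Esrra, Esrrb and Tfam the highest r were with LOC103692173 (0.923), Rps19bp1 (0.959), Dnajc17 (0.960) and Commd8 (0.935).

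Coregulators and partners of the members were counted next (26 of 26 tested), with the shares of all genes beside each count. With PE in siNeg 5 rose and 8 fell (25.2% and 24.3% of all genes; median −0.06). The 5 became 8 without siNeg.PE replicate 1 and 3 in FPKM with a pseudocount of 0.1 (3 to 10 over the alternatives). In siSlc25a26 5 rose and 9 fell (26.4% and 26.0%; median −0.05), and in FPKM 3 rose (3 to 5). Prkaa2, the AMPK subunit that phosphorylates PGC-1α, rose by 1.36 log2 units in siNeg and by 0.64 in siSlc25a26. Creb1 rose by 0.88 in siNeg, a pass lost in FPKM (0.39 and 0.50, adjusted p = 0.141 and 0.137; range 2.43e-05 to 0.141). Lpin1, a coactivator of PGC-1α and PPARα, fell by 0.86 in siSlc25a26. Without PE 12 were higher in siSlc25a26, among them Prkaa2 (1.48), and 0 lower (23.3% and 21.7%; median 0.23; 1 lower without siNeg replicate 2 and with DESeq2 size factors, 0 to 1). Under PE 9 were higher and 1 lower in siSlc25a26.PE (20.1% and 20.1%; median 0.05). The 9 became 5 in FPKM (5 to 10), and 0 were lower without siNeg.PE replicate 3 or siSlc25a26.PE replicate 2.

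Of the near relatives, Pprc1 rose with PE by 0.29 in siSlc25a26 (adjusted p = 0.00468), a pass lost in FPKM (0.0968 and 0.10, adjusted p = 0.236 and 0.229; range 6.18e-04 to 0.236). Perm1 fell by 0.38 in siNeg and by 0.26 in siSlc25a26 (adjusted p = 0.00445 and 0.0154), and Pparg, at most 1.16 CPM in any library, rose by 1.05 in siSlc25a26 (adjusted p = 0.00683). In FPKM with a pseudocount of 1 the Pparg rise was 0.26 (0.26 to 1.06 over the alternatives). Pparg was at −0.09 with PE in siNeg (adjusted p = 0.836), and its interaction of 1.11 did not pass (0.0929). That interaction passed without siNeg.PE replicate 2 (0.0436) and in FPKM with a pseudocount of 1 (0.0369). Pprc1 was at −0.06 with PE in siNeg (adjusted p = 0.587), and its interaction of 0.32 did not pass (adjusted p = 0.0790). That interaction passed with DESeq2 (0.0434) and the replicate block (0.0295), within 0.0295 to 0.263 over the alternatives. It also passed without siNeg replicate 3 (0.0433) or siNeg.PE replicate 1 (0.0309). Under PE Pprc1 was higher in siSlc25a26.PE by 0.47 (adjusted p = 0.00221), which passed under every alternative and with each library left out. Under PE Pparg was higher in siSlc25a26.PE by 1.04 (adjusted p = 0.0264), a pass lost without siNeg.PE replicate 1 or 3 or siSlc25a26.PE replicate 2 or 3 (range 0.0216 to 0.0893) and with DESeq2 (0.0684; 0.00743 to 0.0684). In FPKM with a pseudocount of 1 it was 0.27 (0.27 to 1.08). The Perm1 pass in siSlc25a26 was lost without siSlc25a26.PE replicate 2 (adjusted p = 0.0652) or siSlc25a26 replicate 1 (0.0635), and in FPKM the fall was 0.40 and 0.43 on the log2 scale (−0.43 to −0.25 over the alternatives). There the FPKM median of all genes was −0.13 and −0.17.

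PPAR targets hold genes of fatty acid uptake and oxidation and other genes, such as Ucp2, Fgf21 and Plin2. With PE in siNeg 3 of 30 rose and 13 fell (25.2% and 24.3% of all genes; median −0.19), and in siSlc25a26 2 of 30 rose and 18 fell (26.4% and 26.0%; median −0.46). Ech1, an enzyme of fatty acid oxidation, fell by 1.28 and 1.98 on the log2 scale, and Plin5, a lipid droplet protein, by 1.18 and 1.93. In FPKM with a pseudocount of 1 the Plin5 value in siSlc25a26 was −1.03 (−1.94 to −1.03 over the alternatives). Without PE 4 of 30 were higher in siSlc25a26 and 11 lower (23.3% and 21.7%; median −0.16; 2 higher without siSlc25a26 replicate 2), and Angptl4, an inhibitor of lipoprotein lipase, was higher by 3.43 log2 units. Under PE 3 of 31 were higher in siSlc25a26.PE and 19 lower (20.1% and 20.1%; median −0.39), with Angptl4 higher by 1.87 (0.91 in FPKM with a pseudocount of 1; 0.91 to 1.88) and Acaa2 at −0.83. The interaction was positive for 1 of 31 and negative for 6 (5.48% and 5.73% of all genes; median −0.21). In FPKM 13 were negative (5 to 13 over the alternatives). There the median interaction of all genes was −0.11 and −0.14 with the 2 pseudocounts. Of all 14097 genes, 538 and 768 were called lower in these FPKM fits, against 471 in the main fit. The negative count was 2 without siNeg replicate 2, siNeg.PE replicate 3, siSlc25a26.PE replicate 2 or 3 or siSlc25a26 replicate 1 or 2, and 3 without siNeg.PE replicate 2. The positive count was 0 without siNeg replicate 2 or 3, siNeg.PE replicate 1 or 2, siSlc25a26.PE replicate 2 or 3, or siSlc25a26 replicate 1, 2 or 3.

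ERR targets hold genes of the tricarboxylic acid cycle, the respiratory chain and other functions, such as Mb, Ckmt2 and Mfn2. With PE in siNeg 10 of 25 rose and 4 fell (25.2% and 24.3% of all genes; median 0.16; 2 fell without siNeg.PE replicate 2). In siSlc25a26 14 rose and 5 fell (26.4% and 26.0%; median 0.26; 3 fell without siSlc25a26.PE replicate 2 or 3 or siSlc25a26 replicate 2). In FPKM the counts in siSlc25a26 were 9 and 8 (9 to 14 and 4 to 8 over the alternatives), where the median of all genes was −0.13 and −0.17. Pdha1, of pyruvate dehydrogenase, rose by 1.25 and 1.14 log2 units and Cycs (cytochrome c) by 0.63 and 0.73. Mb (myoglobin) fell by 0.73 in siNeg (adjusted p = 6.16e-05), and Cox8b fell by 0.68 and 0.82. Without PE 2 of 25 were higher in siSlc25a26 than in siNeg and 20 lower, among them Mb at −0.74 and Ckmt2 at −0.67 (−0.41 in FPKM with a pseudocount of 1; −0.68 to −0.41). The shares of all genes were 23.3% and 21.7% (median −0.34; 1 higher without siNeg replicate 1 or 2 or siSlc25a26 replicate 1 or 2). Under PE 1 of 25 was higher in siSlc25a26.PE and 15 lower (20.1% and 20.1%; median −0.33). None was higher without siNeg.PE replicate 3 or siSlc25a26.PE replicate 2 or in FPKM (0 to 1).

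NRF1 targets (16 of 16 tested) rose with PE in 6 cases and fell in 1 in siNeg (25.2% and 24.3% of all genes; median 0.12), and in siSlc25a26 8 rose and 2 fell (26.4% and 26.0%; median 0.13). In siSlc25a26 5 rose and 1 fell without siSlc25a26.PE replicate 2 or siSlc25a26 replicate 1, and 1 fell without siSlc25a26 replicate 2 or with DESeq2. In FPKM 4 rose and 5 fell (4 to 8 and 1 to 5 over the alternatives), where the median of all genes was −0.13 and −0.17. Fmr1 rose by 1.03 log2 units in siNeg, and Polrmt, the mitochondrial RNA polymerase, fell by 0.73 and 0.75. Without PE 1 was higher in siSlc25a26 and 8 lower, with Cox7a2 at −0.77 (23.3% and 21.7%; median −0.16; 2 higher without siNeg replicate 3 and in FPKM, 1 to 2). Under PE 0 were higher in siSlc25a26.PE and 9 lower, with Cox7a2 at −1.20 (20.1% and 20.1%; median −0.26). Without siNeg.PE replicate 1, 1 was higher, and with all 12 libraries in 1 fit 2 were (0 to 3).

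Genes of mitochondrial DNA maintenance, tied to Tfam by function, had 6 of 17 up and 4 down with PE in siNeg (25.2% and 24.3% of all genes; median 0.27; 2 down without siNeg replicate 1 or 2 or siNeg.PE replicate 1 or 2). In siSlc25a26 2 of 17 rose and 4 fell (26.4% and 26.0%; median 0.04). The 2 became 1 without siSlc25a26.PE replicate 2 or siSlc25a26 replicate 1 or 2 and in FPKM (1 to 2), and the 4 became 2 without siSlc25a26 replicate 2. Without PE 2 of 17 were higher in siSlc25a26 and 3 lower (23.3% and 21.7%; median 0.04). The higher count was 1 without siNeg replicate 1 or 2 and with DESeq2, limma-voom and no filter, 0 without siSlc25a26 replicate 2, and 5 in FPKM and with all 12 libraries in 1 fit (1 to 5). The lower count was 1 without siNeg replicate 1 or siSlc25a26 replicate 3 and in FPKM (1 to 3). Under PE 0 of 17 were higher in siSlc25a26.PE and 5 lower (20.1% and 20.1%; median −0.05). The lower count was 3 without siNeg.PE replicate 1 or 2 or siSlc25a26.PE replicate 1 or 3, and 2 without siSlc25a26.PE replicate 2. Without siSlc25a26.PE replicate 3 and with all 12 libraries in 1 fit, 1 was higher (0 to 1).

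In the interaction test 5.48% of all genes were positive and 5.73% negative at an adjusted p under 0.05, and the median of all genes was −0.05. In FPKM that median was −0.11 and −0.14 with the 2 pseudocounts. For ERR targets 1 of 25 was positive and 0 negative (median 0.04), with 0 positive in FPKM with a pseudocount of 0.1 (0 to 1 over the alternatives). For NRF1 targets 1 of 16 was positive and 0 negative (median −0.04). There 1 was negative in FPKM (0 to 2) and without siNeg.PE replicate 1, siSlc25a26.PE replicate 3 or siSlc25a26 replicate 3, and 2 without siNeg replicate 3. For mitochondrial DNA maintenance 0 of 17 were positive and 1 negative (median −0.16). The 1 became 3 in FPKM and 0 with DESeq2, DESeq2 size factors and no filter (0 to 3). It was also 0 without siNeg replicate 1 or 2, siNeg.PE replicate 1, 2 or 3, siSlc25a26.PE replicate 2 or 3, or siSlc25a26 replicate 1 or 2. For coregulators and partners 0 of 26 were positive and 1 negative (median −0.20). The positive count was 2 with DESeq2 and 1 with DESeq2 size factors and in FPKM with a pseudocount of 1 (0 to 2), and 1 without siNeg replicate 2 or 3 or siNeg.PE replicate 1 or 2. The negative count was 2 with DESeq2, 0 with DESeq2 size factors and 3 in FPKM (0 to 4). It was 3 without siNeg replicate 3 or siNeg.PE replicate 1, and 2 without siNeg.PE replicate 2 or siSlc25a26.PE replicate 1. It was 0 without siNeg replicate 1 or 2, siNeg.PE replicate 3, siSlc25a26.PE replicate 2, or siSlc25a26 replicate 1, 2 or 3.

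The 13 mRNAs encoded in mitochondrial DNA matched no symbol in the table and were not analysed here. Medians over all genes are those given with the regulators, and the marker and interferon sums above differ between the same groups; their part in these list counts was not tested. Shares of all genes beside the list counts are of the edgeR fits, and shares that passed in FPKM were not counted.

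**Figure D5:**
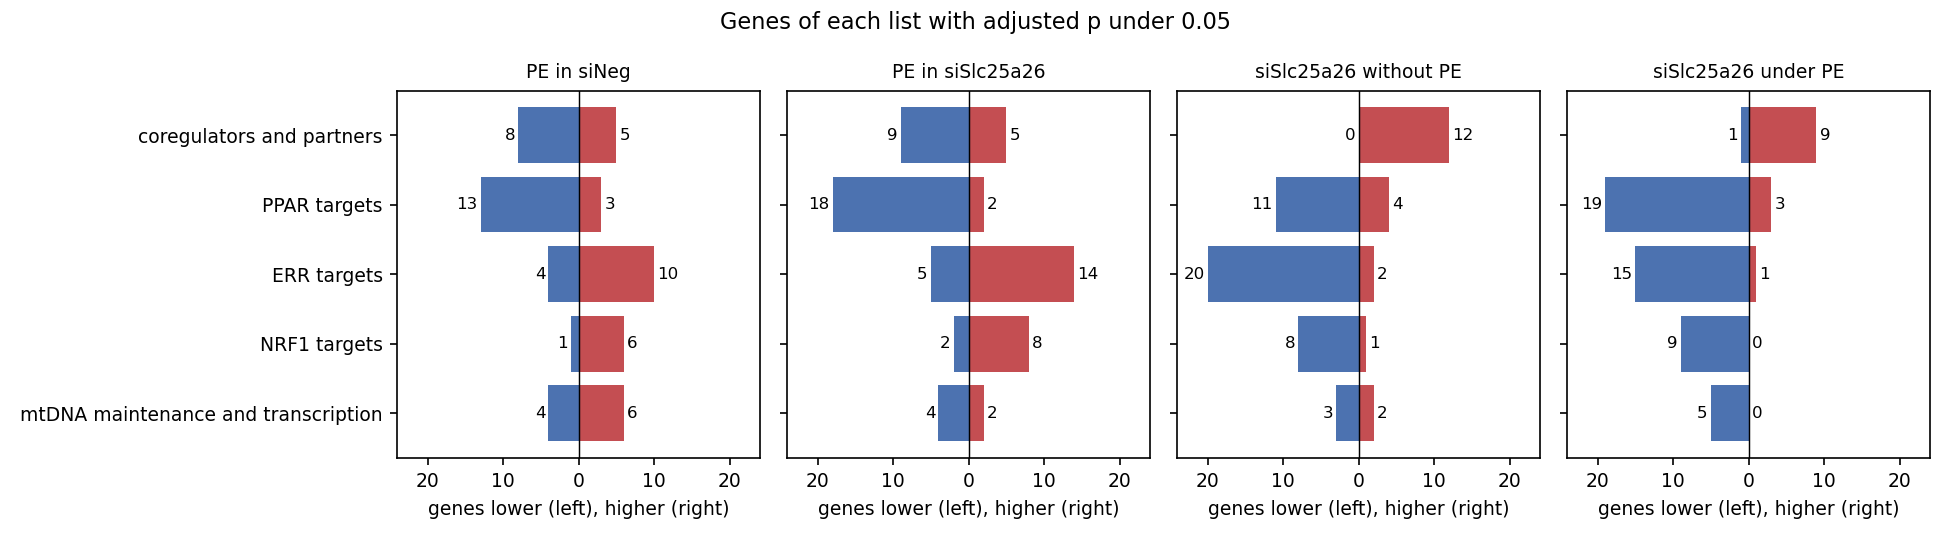
Number of genes of each list (vertical axis) with an adjusted p under 0.05 in each simple comparison; bars to the left count genes that were lower and bars to the right genes that were higher (horizontal axis). PPAR targets have 13 lower and 3 higher genes with PE in siNeg, where 24.3% of all genes were lower and 25.2% higher.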

How the data were processed

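Total RNA of 12 NRVM cultures, 3 independent biological replicates in each of 4 groups, was sequenced. The deposited expected counts are the authors' estimates of reads per gene, and the deposited FPKM values are the same estimates per length and per library. The submitters' processing notes name HISAT, Bowtie2 and the rat build Rnor_6.0; the counting tool is not named there. Expected counts share reads among genes by a model, and 20.8% to 21.9% of values per library were not whole, so they were rounded before testing. FPKM divides by the library total, so it moves when a few abundant genes change.

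Library totals were 24770972 to 28709049 (median 26831364.5), at which 3 counts, the floor used, are 0.0993 to 0.120 CPM. All columns were mapped to labels (0 unmapped). Gene IDs matched a RefSeq table of GRCr8 for 16962 of 18469 genes (91.8%); it was used only for names and promoter sequence.

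Genes were tested with edgeR 4.0.16 (quasi-likelihood F-test, TMM scaling, filterByExpr) in R 4.3.3, with 6 libraries per simple comparison and 12 for the interaction, and Benjamini-Hochberg adjustment over all tested genes. A gene rose or fell at an adjusted p under 0.05, and was called if the fold was also over 1.5. Intervals are 95%. The test was checked on simulated data. Alternatives were DESeq2 1.42.0, limma-voom (limma 3.58.1), DESeq2 size factors, no filter, a filter of 10 counts in every library, a replicate block, 1 fit of all 12 libraries, limma on FPKM with pseudocounts of 1 and 0.1, no fold threshold, and each library left out in turn. CPM used TMM factors over the 12 libraries.

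All 10 members are named in each comparison. Slc25a26, Nppa, Nppb, Acta1, Pparg, Rxrb, Rxrg, Pprc1 and Perm1 were tested with them and are named in some. Of each pathway list some are named, out of up to 4 called genes with the largest change and a mean of at least 1 CPM. The members and lists were chosen with earlier results of these data known.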

Additional observations from a re-analysis of the deposited data

Results flagged for a closer look

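These results stand out because the PE effect differs between the siRNA labels by the interaction test, in which siSlc25a26.PE carries a label that the level of Slc25a26 does not bear out. Among the regulators the difference of log2 changes was −0.83 for Ppargc1a, 0.46 for Ppargc1b and −0.37 for Rxra. It was 1.06 for Slc25a26 itself (adjusted p = 4.66e-04), whose level with PE overlapped between the siRNAs, and 1.95 for Acta1 (adjusted p = 0.00488). Among PPAR targets it was −1.58 for Angptl4 (adjusted p = 0.00744), −0.79 for Pdk4 (0.0331), −0.72 for Ech1 (0.0481) and −0.60 for Acaa2 (0.0304). The pass of Ech1 was lost without siNeg replicate 1 or 2, siNeg.PE replicate 2 or 3, siSlc25a26.PE replicate 2 or 3, or siSlc25a26 replicate 1, 2 or 3 (adjusted p up to 0.115) and with DESeq2 size factors (0.0509; 0.00832 to 0.0509 over the alternatives), and that of Pdk4 without the same libraries except siSlc25a26 replicate 3 (up to 0.0864). The pass of Acaa2 was lost without siNeg replicate 2, siNeg.PE replicate 3, siSlc25a26.PE replicate 2 or 3, or siSlc25a26 replicate 1 or 2 (up to 0.0799). A search for single samples far from the others was not applied, since each group holds 3.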

How the results depend on the processing

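Over the alternatives other than leaving out a library, 378 values of the members kept their direction and their side of the threshold. Of the others, 33 lost a pass, 12 gained one and 17 turned direction. With 1 library left out these counts were 278, 57, 3 and 22. Each value was counted once, so Tfam with PE in siSlc25a26 in FPKM, which turned and passed, stands only among those that turned. The fall of Rxra with PE under both siRNAs, the fall of Ppargc1a and rise of Ppargc1b with PE in siSlc25a26, and the interactions of Ppargc1a and Ppargc1b passed under every alternative run and with each library left out; the Rxra interaction did not (adjusted p = 0.0575 with DESeq2 size factors, 0.0104 to 0.0575 over the alternatives). For the values below the cause was not tested, except that no fold threshold calls more genes by construction. Each member had at least 155 counts in each library; no fit at another depth was run.

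With no fold threshold, genes counted higher and lower were 3456 and 3329 (PE in siNeg), 3634 and 3585 (PE in siSlc25a26), 3223 and 2998 (without PE), 2744 and 2744 (under PE) and 773 and 808 (interaction), and members 3 and 3, 2 and 4, 4 and 2, 2 and 3, and 1 and 2. With DESeq2, members higher without PE were 2 and the Nrf1 interaction was 0.0261. With DESeq2 size factors the Nrf1 interaction was 0.0259 and members with a negative interaction 1. With all 12 libraries in 1 fit, Slc25a26 under PE was 0.0045, Rxra without PE 0.0071 and members lower without PE 1. With limma-voom the Nppb interaction was 0.0202 and Slc25a26 under PE 0.0044. With no filter the Nrf1 interaction was 0.0055 and members higher under PE 1; with the stricter filter these were 1.78e-04 and 1. With the replicate block, members that fell with PE in siSlc25a26 were 2, the Nppb interaction was 0.0180 and Slc25a26 under PE 0.0032; Ppargc1a then rose with PE in siNeg (adjusted p = 4.34e-04), Nrf1 with PE in siSlc25a26 had an adjusted p of 0.0590, and coregulators that rose with PE in siNeg were 10. Replicate numbers are not known to pair, and same-number libraries correlated in their deviations at −0.12 to 0.35 over the comparisons. For PE in siNeg, where Ppargc1a passed with the block, the values were 0.22, −0.02 and 0.35 for replicates 1, 2 and 3.

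FPKM moved the median of all genes for PE in siSlc25a26 from −0.00 to −0.13 (pseudocount 1) and −0.17 (0.1), and for the interaction from −0.05 to −0.11 and −0.14. With a pseudocount of 0.1, members that rose with PE in siNeg were 0; with PE in siSlc25a26 824 genes were called higher and 2214 lower, 0 members higher and 2 lower, with 1 rise and 7 falls, and Tfam was −0.15; 768 genes had a negative called interaction, with Esrrg −0.10 and Perm1 −0.0133; under PE Esrrg, Perm1 and Tfam were −0.0380, −0.0353 and −0.0379, 1 member was called lower and 1 passed higher; without PE Nrf1 was 0.0373, Rxra 0.0015 and members higher 2. With a pseudocount of 1, genes called with PE in siNeg were 857 and 733 and members that rose 0; with PE in siSlc25a26 564 genes were called higher, 0 members were called higher, 1 rose and 7 fell, and Tfam was −0.14; 164 genes had a positive called interaction, with Esrrg −0.0846 and Perm1 −0.0121; under PE 623 genes were called higher, Esrrg, Perm1 and Tfam were −0.0342, −0.0329 and −0.0368 and members higher 1; without PE 452 genes were called lower, Nrf1 was 0.0346, Rxra 0.0015 and members higher 2.

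With each library left out in turn, PE in siNeg gave −0.0164 to 0.12 for Esrrb, −0.41 to 0.11 for Pparg, −0.12 to 0.00958 for Pprc1 and 1 to 3 members that rose; PE in siSlc25a26 gave −0.00571 to 0.0591 for Tfam and 2 to 3 members that fell. The interaction gave 301 to 646 genes called lower, −0.0846 to 0.14 for Esrrg, −0.31 to 0.0429 for Nppa, −0.35 to 0.13 for Nppb, −0.0642 to 0.0526 for Nrf1 and 1 to 2 members lower. Under PE the ranges were −0.15 to 0.0023 for Esrra, −0.12 to 0.0311 for Esrrb, −0.0275 to 0.14 for Esrrg, −0.0931 to 0.0292 for Nrf1, −0.0228 to 0.0790 for Perm1, −0.13 to 0.0837 for Slc25a26, −0.0103 to 0.0641 for Tfam, 0 to 1 member called lower and 0 to 2 passing higher. Without PE Esrrg was −0.0951 to 0.11 and members higher 1 to 3.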
